A study of Mus musculus with 6 samples.

Results

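Efferocytosis, the engulfment of dying cells by macrophages, was examined through 4 genes, 2 of which encode receptors and 2 of which encode bridging ligands. The transcripts were ENSMUST00000014505_at (Mertk), ENSMUST00000002677_at (Axl), ENSMUST00000033828_at (Gas6) and ENSMUST00000032825_at (Mfge8), and all 4 identifiers were found among the 81690 Ensembl transcripts of the array table. They were taken by identifier, with the gene name given beside each, as receptors and ligands of efferocytosis. The reference gene table lists RefSeq accessions and no Ensembl transcripts, so that the gene names were not checked against it, and other transcripts of the same genes were not identified. Each value below is therefore that of 1 transcript per gene.

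A dying cell exposes phosphatidylserine, a lipid that living cells keep on the inner face of their membrane. Gas6 and Mfge8 are secreted proteins that bind this lipid and hold the dying cell to the macrophage. Gas6 does so through the TAM receptor tyrosine kinases, to which Mertk and Axl belong, whereas Mfge8 binds integrins of the macrophage. Mertk is known as a main efferocytosis receptor of tissue macrophages, and in the atherosclerotic plaque the clearance of dying foam cells is a known determinant of the size of the necrotic core.

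The macrophages were resident peritoneal cells of female C57BL/6J mice aged 8 to 12 weeks, obtained by lavage and purified by adherence to the plate. In each of 3 replicate experiments the cells of several mice were pooled and plated in a pair of wells. One well received 25 µg/mL human LDL oxidized with CuSO4 (oxLDL) for 24 h and the other the vehicle, PBS (unstim in the labels), so that 3 oxLDL arrays were compared with 3 vehicle arrays. No genotype or other agent separated the groups, and the numbers 1, 2 and 3 in the labels mark the experiment. Adherence was the only purification, and the labelled cell type was not checked against its markers, since no other transcript was paired with a gene name. Total RNA from each well was measured on 1 exon array (Affymetrix Mouse Exon 1.0 ST), and the deposited values, taken as log2 from their range of 5.95 to 14.42, are used as given.

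Of the 4 transcripts, 3 were lower and 1 was higher after oxLDL. Mertk decreased to 59.9% of its vehicle value and Axl to 42.2%, so that both receptors fell. Gas6, the ligand of these receptors, decreased to 81.1%, and Mfge8, the ligand that binds integrins, increased to 143%. With limma and Storey q-values over all 40845 tested transcripts, all 4 changes had a q-value below 0.05, as did 41.5% of the tested transcripts, and only the decrease of Axl also reached the 2-fold threshold. This fit has no term for the experiments, and with a replicate block and each transcript's own variance Gas6 (q = 0.0645) and Mfge8 (q = 0.0559) were no longer below 0.05. In total RNA from a well, a lower value per cell and fewer cells that express the gene cannot be told apart.

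Sequence upstream of the gene start is shown for a receptor that decreased, Mertk, and for the ligand that increased, Mfge8. The sequences are the 250 bases before the annotated start in RefSeq (GRCm38.p6), on the strand of the gene. They lie at chr2:128698665-128698914 on the plus strand for Mertk and at chr7:79149061-79149310 on the minus strand for Mfge8. Capitals mark the GC box, GGGCGG or its reverse complement CCGCCC, which is known as the binding sequence of Sp1.
Mertk: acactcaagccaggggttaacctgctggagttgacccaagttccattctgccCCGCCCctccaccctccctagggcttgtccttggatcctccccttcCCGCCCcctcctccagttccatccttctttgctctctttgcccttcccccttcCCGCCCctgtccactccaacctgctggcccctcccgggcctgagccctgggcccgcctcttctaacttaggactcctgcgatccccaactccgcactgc
Mfge8: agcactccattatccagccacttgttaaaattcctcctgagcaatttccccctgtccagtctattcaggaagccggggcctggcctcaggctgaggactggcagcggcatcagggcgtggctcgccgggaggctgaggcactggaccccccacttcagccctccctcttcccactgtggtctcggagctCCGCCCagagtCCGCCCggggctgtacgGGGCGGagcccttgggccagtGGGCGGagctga

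The GC box occurred 3 times in the Mertk window, starting 198, 152 and 99 bases before the annotated start, and 4 times in the Mfge8 window, starting 61, 50, 33 and 12 bases before it. It occurred 4 times in the Gas6 window and once in the Axl window. Of the 32851 promoter windows examined, mouse chromosome 18 not included, 32.7% held at least 1 GC box on either strand. The G and C content of the windows was 63.6% for Mertk, 60.0% for Axl, 54.8% for Gas6 and 65.2% for Mfge8, above the median of 52.4%. None of the 4 windows held TGANTCA (the AP-1 site), AGGTCA (the core hexamer of nuclear receptor elements) or CACGTG (the E-box) on either strand, letters that were found in 6.75%, 14.0% and 6.02% of windows, respectively. Since the GC box alone was found, no matches of different patterns overlapped, and the absence of a pattern says nothing about the factor that binds it. Of the Axl window, 191 bases lie inside the span of the gene in the RefSeq table, and its sequence is not shown. The array values come from transcript probe sets and not from these windows.

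Mertk, the receptor tyrosine kinase that binds Gas6 and protein S, had values of 12.16, 12.03 and 12.25 (log2) on vehicle arrays 1, 2 and 3. On oxLDL arrays 1, 2 and 3 it had values of 11.42, 11.39 and 11.42. The 3 oxLDL arrays were all below the 3 vehicle arrays, with 0.61 between the nearest values of the groups, and they lay close together (SD 0.02, n = 3) vs. the vehicle arrays (SD 0.11, n = 3). The log2 fold-change was -0.74 (standard error 0.09, limma q = 0.000117), with a 95% interval of -0.94 to -0.54. The decrease was thus clear of the replicate spread but smaller than 2-fold over the whole interval. Within experiments 1, 2 and 3 it was -0.74, -0.64 and -0.83 (log2), the narrowest range of the 4 genes (SD 0.09).

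Axl, the TAM receptor that binds Gas6 and is known to be induced in many inflamed tissues, had values of 10.57, 10.78 and 11.05 on vehicle arrays 1, 2 and 3. On oxLDL arrays 1, 2 and 3 it had values of 9.23, 9.84 and 9.60. The groups did not overlap, and the gap between them was 0.73, although both groups were more widely spread than for Mertk (SD 0.24 for vehicle and 0.31 for oxLDL, n = 3 each). The log2 fold-change was -1.24 (standard error 0.16, limma q = 0.00017), or 2.37-fold. Its 95% interval of -1.61 to -0.88 includes changes on both sides of 2-fold. Axl was 2.53-fold lower with oxLDL in experiment 1, 1.92-fold lower in experiment 2 and 2.73-fold lower in experiment 3, so that experiment 2 did not reach 2-fold.

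Gas6, the vitamin K-dependent ligand of the TAM receptors, had values of 9.30, 9.32 and 9.39 on vehicle arrays 1, 2 and 3. On oxLDL arrays 1, 2 and 3 it had values of 9.06, 9.14 and 8.90. All oxLDL values were below all vehicle values, but the gap of 0.16 was the smallest of the 3 genes whose groups did not overlap. The log2 fold-change was -0.30 (standard error 0.09, limma q = 0.0139), with a 95% interval of -0.51 to -0.09. The change was -0.24, -0.18 and -0.49 (log2) within experiments 1, 2 and 3.

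Mfge8, also known as lactadherin, had values of 9.37, 9.31 and 9.79 on vehicle arrays 1, 2 and 3. On oxLDL arrays 1, 2 and 3 it had values of 10.13, 9.78 and 10.10. The groups overlapped by 0.01, because vehicle array 3 was slightly above oxLDL array 2. Within experiments, however, oxLDL was higher in 3 of 3, by 0.76, 0.47 and 0.31 (log2). The log2 fold-change was 0.51 (standard error 0.14, limma q = 0.00905), with a 95% interval of 0.19 to 0.84.

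**Figure D1:**
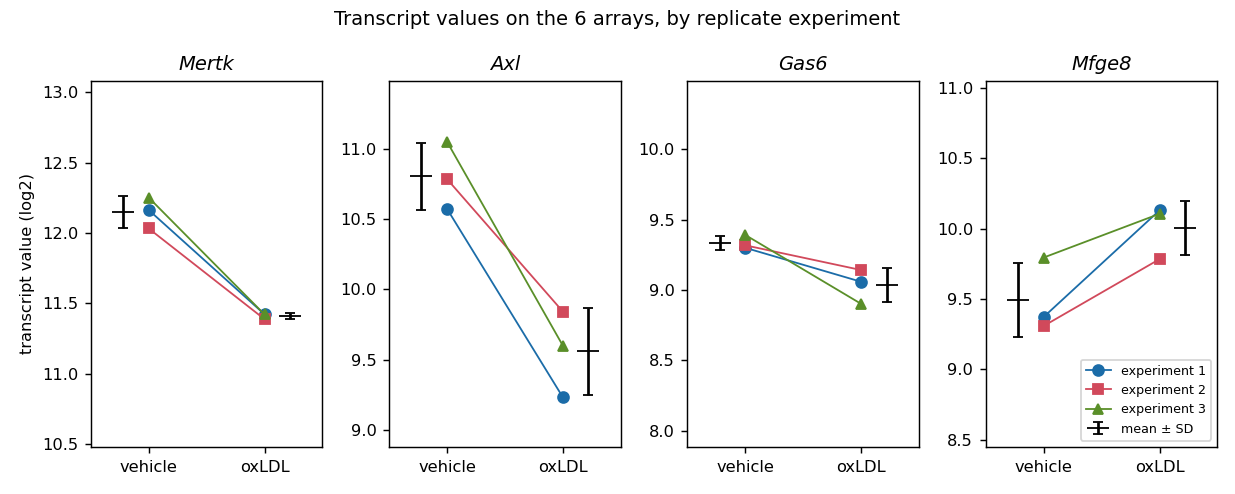
Values (log2) of Mertk, Axl, Gas6 and Mfge8 on the vehicle and oxLDL arrays, with lines that join the wells of 1 experiment and bars for the mean ± SD of the 3 arrays per group (each panel spans the same range). Lines fall in all 3 experiments for Mertk, Axl and Gas6 and rise in all 3 for Mfge8, and the groups overlap for Mfge8, where vehicle array 3 (9.79) lies above oxLDL array 2 (9.78).

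These calls were read against the background of the array. Of the 40845 tested transcripts, 30.8% were lower and 10.7% higher with oxLDL at a q-value below 0.05, so that a q-value below 0.05 alone is common in this comparison. The balance of these calls (4369 higher and 12587 lower) depended on the scaling, and quantile normalization turned it to 9955 higher calls vs. 8842 lower ones. The number of calls also depended on single arrays, with 2735 higher calls without vehicle array 1, 2871 without oxLDL array 1, and 8368 lower calls without vehicle array 3. At a q-value below 0.05 and at least 2-fold, 2.45% were lower and 0.686% higher, with Axl among the former and none of the 4 among the latter. Groups did not overlap for 45.2% of tested transcripts and for 3 of the 4 genes. The median log2 fold-change was -0.52 over the 4 genes and -0.10 over all tested transcripts, and the median size of the change without its sign was 0.63 and 0.19. All 4 transcripts passed the filter on dim transcripts (a mean over the 6 arrays above 8.74), and all 24 of their values were above 8.74, so that none passed it through 1 group alone.

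The position of each gene in the distribution of changes differed. Axl lay near the lower end, with 1.47% of tested transcripts having a lower log2 fold-change, and Mertk followed with 5.06%. Mfge8 lay near the upper end, with 96.8% of tested transcripts below it. Gas6 had 23.8% of tested transcripts below it. Over all 81690 transcripts, whose median change was 0.0018, the shares below were 0.79% for Axl, 2.80% for Mertk, 14.2% for Gas6 and 98.1% for Mfge8.

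**Figure D2:**
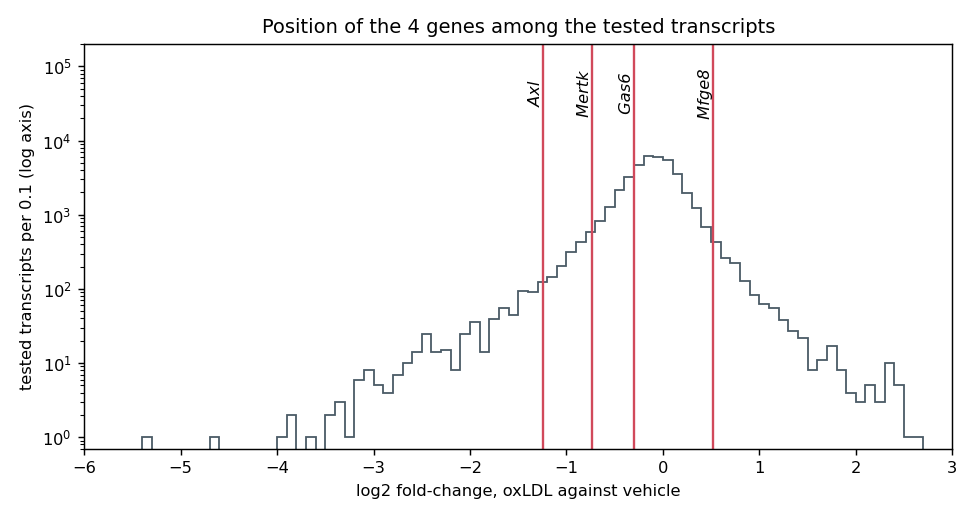
Distribution of the log2 fold-change (oxLDL against vehicle) over the 40845 tested transcripts, as the number per 0.1 on a log axis, with a vertical line for each of the 4 genes. Axl (-1.24) and Mertk (-0.74) lie in the lower flank, Mfge8 (0.51) in the upper flank, and Gas6 (-0.30) within the bulk.

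The whole array moved to a different degree in the 3 experiments, and each gene was therefore set beside transcripts of like brightness. All transcripts were divided by their mean into 10 groups of 8169. The group that holds Mertk had a median change of -0.06, -0.0017 and -0.23 (log2) in experiments 1, 2 and 3. Relative to these medians the change of Mertk was -0.68, -0.64 and -0.60, a narrower range than before. That of Axl was -1.24, -0.90 and -1.17 relative to its group, and that of Mfge8 was 0.84, 0.51 and 0.58. For Gas6 it was -0.19, -0.16 and -0.26, so that part of its decrease in experiment 3 (-0.49) was common to transcripts of its brightness (-0.23). With every array centred in this way, the log2 fold-changes were -0.63 for Mertk (limma q = 0.000348), -1.10 for Axl (q = 0.000586), -0.19 for Gas6 (q = 0.0211) and 0.65 for Mfge8 (q = 0.00443). The direction of all 4 genes was the same after quantile normalization and after median centring.

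**Figure D3:**
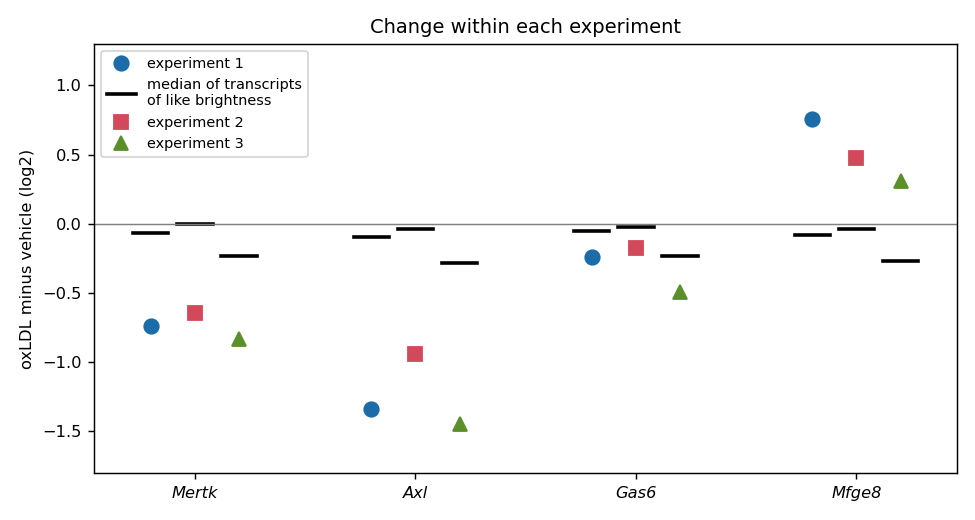
Difference between the oxLDL and the vehicle array (log2) within experiments 1, 2 and 3 for each gene, with a short black line for the median difference of the 8169 transcripts of like brightness in that experiment. Mertk, Axl and Gas6 lie below their black lines and Mfge8 above in all 3 experiments, and Gas6 is closest to them.

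The 4 genes were also compared with one another within arrays, where a shift shared by all transcripts cancels. For each of the 6 pairs of genes, the difference of the log2 values on an array was compared between oxLDL and vehicle. These are differences of change, since the levels of different probe sets are not comparable. The difference Mfge8 minus Axl was higher with oxLDL by 1.76 (log2, 3.38-fold), and by 2.10, 1.42 and 1.76 within experiments 1, 2 and 3. Mfge8 minus Mertk was higher by 1.25. Between the ligands, Mfge8 minus Gas6 was higher by 0.82, and by 0.65 to 1.00 in the experiments.

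Between Gas6 and its receptors, the difference was higher with oxLDL by 0.44 for Gas6 minus Mertk (0.34 to 0.50 in the experiments) and by 0.94 for Gas6 minus Axl (0.77 to 1.10). The groups did not overlap for these 5 pairs (exact permutation test over the arrays, two-sided, P = 0.10, the smallest that 3 arrays against 3 allow, and 0.12 after Benjamini-Hochberg adjustment over the 6 pairs). The change of Axl minus Mertk was -0.50, with -0.60, -0.30 and -0.62 in the experiments, and here the groups overlapped (exact permutation test, P = 0.20, also 0.20 after adjustment). Without oxLDL array 1 this change was -0.34. With swaps within the experiments the exact P was 0.25 for all 6 pairs, the smallest that 3 experiments allow, so that neither test can pass 0.05.

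**Figure D4:**
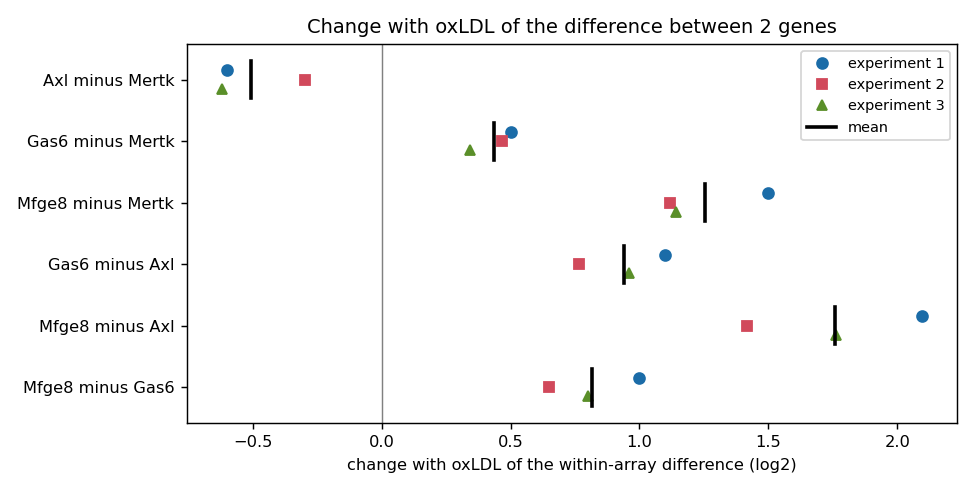
Change with oxLDL of the difference between 2 genes on the same array (log2), for the 6 pairs, with 1 symbol per experiment and a black line at the mean. All 3 experiments lie on the same side of 0 for each pair, and the widest separation is that of Mfge8 and Axl (1.76).

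Transcripts whose 6 values followed the same course were sought among the tested transcripts, each centred on its own mean. For Mertk, 510 of 40844 transcripts followed within a root mean square difference of 0.1 (log2), the closest being ENSMUST00000164078_at at 0.017. For Axl there were 8 of 40842, the closest being ENSMUST00000161464_at at 0.075, with a log2 fold-change of -1.14. For Mfge8 there were 82 of 40843, the closest being ENSMUST00000125203_at at 0.062, with a log2 fold-change of 0.56. For Gas6 there were 6230 of 40793. These numbers are a description, and whether a course is particular to a gene was not tested. Transcripts within 0.1 of the gene's own values on all 6 arrays were left out of this search, namely 2 for Axl, 1 for Mfge8, 51 for Gas6 and none for Mertk. Whether any of them share probes with the 4 genes is not known, since they were not paired with gene names.

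The estimates were compared across the ways of processing. With 1 array left out in turn, the log2 fold-change stayed between -0.80 and -0.69 for Mertk, -1.39 and -1.08 for Axl, -0.36 and -0.24 for Gas6, and 0.42 and 0.67 for Mfge8. The q-values of these fits reached 0.00144, 0.00334, 0.0462 and 0.0385, respectively, so that Gas6 came closest to losing its call. Alternatives that change only the block, the adjustment, the filter or the variance estimate leave the log2 fold-change as it is, so that they cannot alter a 2-fold result. With 1 array left out, with another scaling or with an offset of 16 added, Axl was at least 2-fold lower in each fit. Neither Mertk, Gas6 nor Mfge8 reached 2-fold in any alternative.

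**Figure D5:**
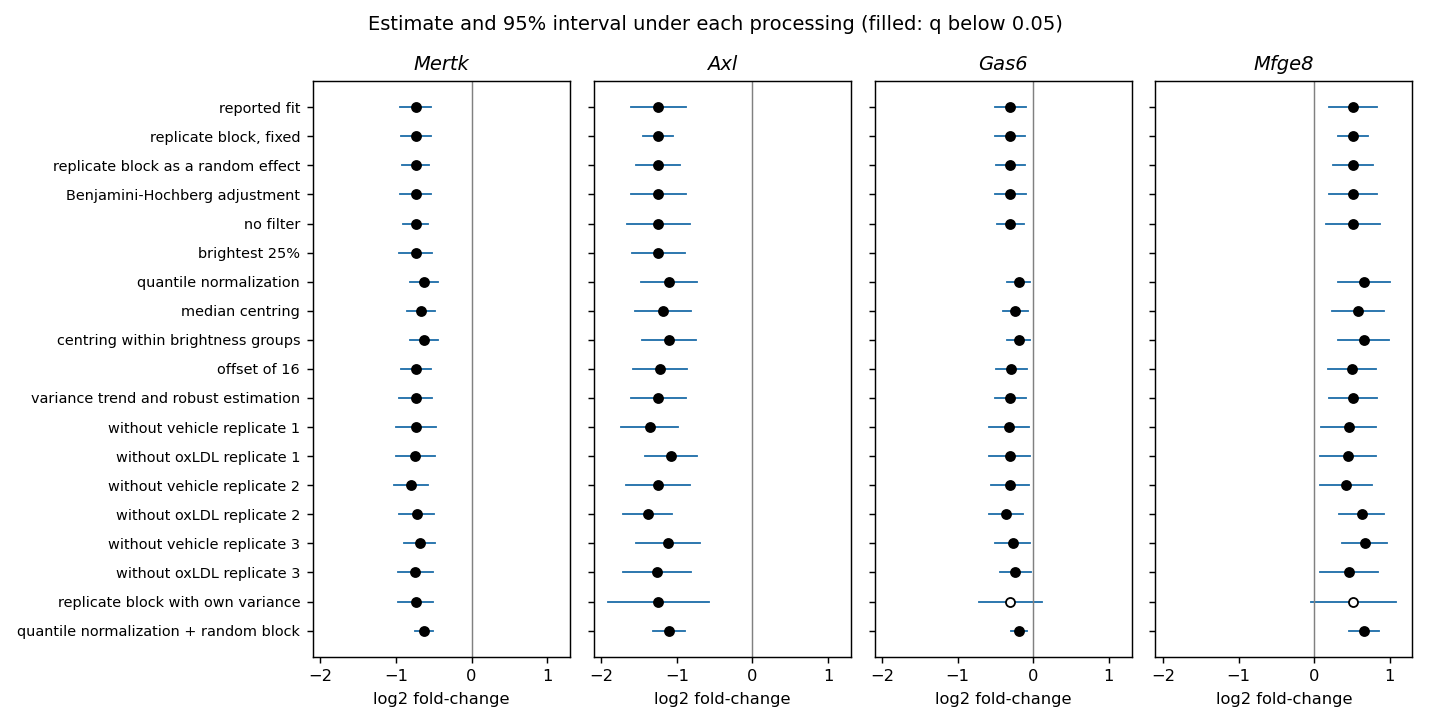
Log2 fold-change with its 95% interval (line) for each gene under the reported fit and each alternative, filled where the q-value was below 0.05 (the fixed replicate block, with 1 variance for all transcripts, is drawn but not read). Mertk and Axl are filled throughout, Gas6 and Mfge8 are open with the replicate block and the transcript's own variance (q = 0.0645 and 0.0559), and neither of these 2 was tested among the brightest 25% of transcripts.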

How the data were processed

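Probe intensities were quantile-normalized by the authors with no background adjustment, and PLIER was run on CustomCDF version 15 probe sets of Ensembl release 65, and the deposited table holds a log2 value per transcript and array. Base 2 was inferred from the range, an added offset is not stated, and the authors' detection calls were not used here. Arrays were grouped and numbered by their titles.

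The 40845 transcripts with a mean above the median of all (8.74) were fitted with limma 3.58.1 in R 4.3.3 (oxLDL against vehicle, no block, proportion 0.1, two-sided) and q-values followed Storey's method, as in the study's methods. Permutation tests used scipy 1.17.1, and figures matplotlib 3.10.9. The 3 arrays per group limit the precision.

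Wells of 1 number came from the same pool of cells. Deviations from the group means correlated at 0.51, 0.67 and 0.58 within the numbers and at -0.53 to -0.04 across them, so the numbers pair the arrays.

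The 4 genes, the motifs and the alternatives were chosen with earlier results of these data known. The 4 genes were named by identifier, and the most alike transcripts by the smallest root mean square difference (2 that fell and 1 that rose are given). None of the 81690 identifiers matched the gene table, so lists of other efferocytosis genes and of cell type markers were not analysed here.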

Additional observations from a re-analysis of the deposited data

How the results depend on the processing

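Mertk and Axl kept a q-value below 0.05 in 17 of 17 alternatives, the fixed replicate block not counted. Gas6 and Mfge8 kept it in 15 of the 16 in which they were tested. All 4 genes kept their direction, but it could change only with another scaling, an offset of 16 or an array left out. The other alternatives leave the log2 fold-change as it is. With the replicate block and each transcript's own variance, an alternative chosen after the data were seen, the estimates of Gas6 (-0.30, q = 0.0645) and Mfge8 (0.51, q = 0.0559) lost the call. That fit has 2 residual degrees of freedom and no q-value below 0.034. With that fixed block limma gave all transcripts 1 common variance, and its q-values are not used. The random block changed no call among the 4 genes, and over all tested transcripts it gave 5847 higher and 15663 lower calls at q below 0.05. Quantile normalization moved the median of the tested transcripts from -0.10 to 0.02 (log2) and the calls at q below 0.05 from 4369 higher and 12587 lower (25.8% higher) to 9955 and 8842 (53.0%). Median centring gave 7543 and 11175 (40.3%), and centring within brightness groups 9303 and 9128 (50.5%). Among the calls that also reached 2-fold, 21.9% were higher, vs. 33.7% with quantile normalization (383 higher and 753 lower) and 33.5% with centring within brightness groups (378 and 752). Calls at q below 0.05 numbered 9656 among the brightest 25%, where 20423 transcripts were tested, 10103 with the block and own variance, and 29580 with quantile normalization and the random block together, also chosen afterwards. Calls past both thresholds numbered 832 among the brightest 25%, vs. 1281. With 1 array left out, higher calls at q below 0.05 numbered 2735 to 4565, and lower calls 8368 to 14845. The within-array differences of the 6 pairs of genes moved by less than their pooled SD over the arrays of a group in 10 of 10 alternatives each. Of these, median centring could not move them, since it shifts all values of an array alike. Without oxLDL replicate 1, Gas6 minus Axl moved from 0.94 to 0.77, slightly more than its SD over the 3 experiments (0.17), and Axl minus Mertk moved from -0.50 to -0.34. Signal over background was not assessed.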
